A study of Mus musculus with 6 samples.

Results

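Cadherins and protocadherins are calcium-dependent adhesion molecules of the cell surface, named in the mouse with the symbols Cdh and Pcdh. Every row of the authors' deposited table whose symbol is Cdh followed by a number, or begins with Pcdh, was taken, which gave 48 genes of the 14472 in the table. The family falls into 12 cadherins, 8 non-clustered protocadherins and 28 clustered protocadherins. None of the 48 symbols stood on more than 1 row. In the GENCODE M21 annotation 92 protein-coding genes carry such a symbol, of which 47 are among the genes of the table and 45 are not analysed here, among them Cdh1, Cdh3, Cdh4, Pcdh8 and Pcdh9. Pcdhgb8, the remaining gene of the 48, is not typed as protein-coding in that annotation.

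The RNA came from mLPS1, a mouse line labelled as dedifferentiated liposarcoma cells, which is a tumour of the fat lineage that has lost most fat-cell features. It was sequenced from 3 libraries with the genotype WT (p35, p37 and p40 in their titles) and 3 libraries labelled NICD Knockout (p34, p36 and p39), and the labels give no agent, time or age and do not explain the p numbers. NICD, the Notch intracellular domain, is the part of a Notch receptor that is freed on activation and acts in the nucleus with the DNA-binding protein Rbpj. The title of the series names Notch over-expression where the labels name a knockout. Whether the wild type line carries an added Notch fragment, how the knockout line was made, or whether it is 1 clone, is not stated in the sources used here.

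Each group is a single line, and no label states that its libraries were grown as separate cultures, so every p-value measures the spread between these 6 libraries alone, which may be technical. The authors' deposited table holds 1 comparison, knockout over wild type by its name, so depth per library is unknown and no value of a single library could be shown or compared. A level of a group below is the fitted normalised count (counts divided by a library size factor), derived from the deposited mean and fold change on the assumption that all 6 libraries entered. The authors' deposited table gave Notch1 a log2 fold change of -1.78 and the Notch target Heyl one of -10.65, and it does not separate an introduced Notch1 fragment from the endogenous gene. Of 8 adipocyte markers 4 were tested (Lpl, Fabp4, Pparg and Cebpa), and their summed fitted level was 2277 in wild type and 765 in the knockout, of which Lpl made up 2229 and 414. Lpl fell and Fabp4 rose (4.37 to 307.4), while Pparg and Cebpa did not pass. Of 11 tested fibroblast and progenitor markers, with sums of 293575 and 139856, 5 fell (Fn1, Vim, Col1a1, Pdgfrb and Col3a1), 4 rose (Ly6a, Pdgfra, Dcn and Col1a2) and 2 did not pass.

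Classical cadherins bind the same or a similar cadherin on the neighbouring cell through their outer repeats, and their tails hold catenins, which couple the junction to actin. Cells of mesenchymal type, such as fibroblasts and sarcoma cells, usually carry N-cadherin (Cdh2) and cadherin-11 in place of the epithelial E-cadherin (Cdh1). Protocadherins share the outer repeats but not the catenin-binding tail. The clustered ones lie in a row of alpha, beta and gamma genes on chromosome 18, where each variable exon has its own promoter, and in neurons the choice among them differs from cell to cell.

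In the knockout some of the most abundant cadherins of these cells fell and others, barely measured in wild type, rose. Cdh6 and Cdh11, each among the most abundant cadherins of wild type, fell 279.9-fold and 184-fold, while Cdh18, Cdh10 and Pcdh17, below 3 normalised counts in wild type, rose to between 122.2 and 613. N-cadherin did not pass the test and became the most abundant cadherin of the knockout per length of transcript. Of the clustered protocadherins, Pcdhac2 and Pcdhgb1 fell steeply and the abundant Pcdhgc3 did not pass.

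Of the 48 genes, 28 (58.3%) passed an adjusted p of 0.05 per the authors' deposited table (DESeq2, adjusted over all 14470 genes tested), where 50.5% of all genes tested did. Higher in the knockout were 11 (22.9%, against 25.4% of all genes tested) and lower were 17 (35.4%, against 25.1%). The share that passed is therefore close to the background of a comparison in which about every other gene passed, and the direction of single genes carries the description that follows. The shares of 50.5%, 25.4% and 25.1% over all genes tested also stand beside each count of a subgroup or marker list, above or below. A change of at least 16-fold, a size chosen after the values were seen, together with an adjusted p under 0.05, was reached by 14 of the 48 (29.2%, 6 higher and 8 lower), where 5.86% of all genes tested reached it. With each group below 1 normalised count per library (3 over the group) set at that floor, 12 of 48 (25%) reached 16-fold and 4.42% of all genes tested. These shares over all genes are not matched for expression. The 48 had a median mean of 24.8 and a median SE of 0.77, against 450 and 0.19 over all genes tested. Whether the 48 differ from genes of like expression was not tested. The median log2 fold change of the 48 was -0.11, beside 0.02 over all genes tested.

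**Figure D1:**
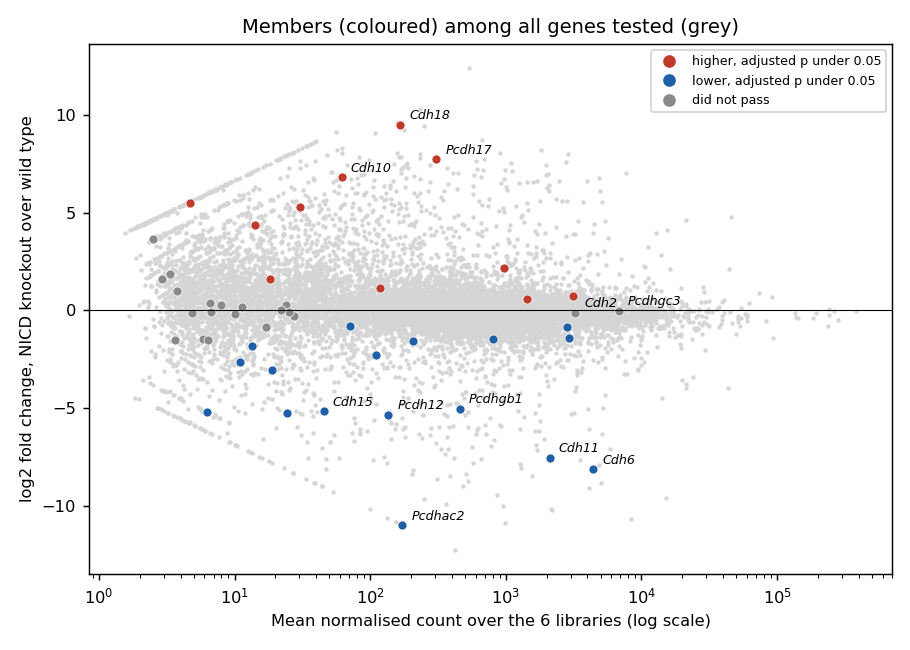
Mean normalised count over the 6 libraries (horizontal, log scale) and log2 fold change of NICD knockout over wild type (vertical) for the 48 cadherins and protocadherins (coloured by call) and all other genes tested (grey). Cdh6 and Cdh11 have means of 4397 and 2115 and fold changes of -8.13 and -7.52, while Cdh2 and Pcdhgc3, at means of 3241 and 6817, lie near 0.

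Promoter sequence is shown for the pair of type II cadherins that rose furthest, for the cadherin on their chromosome that fell furthest, and for the protocadherin with the steepest rise, so that the starts of genes that moved in opposite directions can be read side by side. Of the 48 genes 13 matched an entry in the promoter table drawn from RefSeq (build GRCm38.p6). Each line gives the 250 bases upstream of the annotated start, 5′ to 3′ on the gene's strand, with CpG dinucleotides, the sites of DNA methylation in mammals, in capitals. None of these stretches overlaps an untranslated or coding part annotated for the same gene in GENCODE M21, which is on the same build. Exons of other genes were not checked. They lie at chr15:13173676-13173925 (minus strand) for Cdh6, chr15:18820079-18820328 (plus strand) for Cdh10, chr15:23036213-23036462 (plus strand) for Cdh18 and chr14:84443313-84443562 (plus strand) for Pcdh17.
Cdh6: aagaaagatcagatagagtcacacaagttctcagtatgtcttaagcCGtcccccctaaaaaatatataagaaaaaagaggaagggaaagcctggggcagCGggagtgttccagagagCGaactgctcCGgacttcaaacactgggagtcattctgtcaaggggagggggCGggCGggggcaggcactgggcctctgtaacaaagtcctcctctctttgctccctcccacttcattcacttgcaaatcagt
Cdh10: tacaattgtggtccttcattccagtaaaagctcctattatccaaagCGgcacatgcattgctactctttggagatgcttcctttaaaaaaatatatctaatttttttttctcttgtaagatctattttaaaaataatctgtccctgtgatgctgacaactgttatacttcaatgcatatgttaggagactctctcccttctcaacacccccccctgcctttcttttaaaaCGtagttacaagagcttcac
Cdh18: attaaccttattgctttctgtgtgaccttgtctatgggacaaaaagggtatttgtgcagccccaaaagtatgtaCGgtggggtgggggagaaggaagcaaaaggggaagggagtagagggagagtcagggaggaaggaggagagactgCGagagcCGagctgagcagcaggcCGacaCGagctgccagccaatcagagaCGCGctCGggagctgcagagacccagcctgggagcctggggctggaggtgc
Pcdh17: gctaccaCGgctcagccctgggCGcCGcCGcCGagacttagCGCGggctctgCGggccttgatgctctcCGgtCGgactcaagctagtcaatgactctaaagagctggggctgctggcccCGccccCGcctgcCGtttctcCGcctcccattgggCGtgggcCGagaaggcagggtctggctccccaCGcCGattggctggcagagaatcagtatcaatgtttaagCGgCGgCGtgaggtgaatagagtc

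The stretch upstream of Pcdh17 held 21 CpG dinucleotides and that of Cdh18 held 8, against 6 for Cdh6 and 2 for Cdh10. Over the promoters of all genes in the RefSeq table the quartiles of the CpG count were 2, 6 and 16. The GC content was 64.8% for Pcdh17, 58% for Cdh18, 51.2% for Cdh6 and 36.8% for Cdh10, and its median over all promoters was 52.4%. So the printed genes that rose differed more among themselves in CpG count than from Cdh6, the only printed gene that fell. Of the other genes with an entry, Cdh15, Cdh24 and Pcdh18, which fell, held 5, 22 and 23. Cdh26, Pcdh7, Cdh12, Pcdh19 and Pcdh10, which rose, held 0, 7, 7, 16 and 22. Both strands were searched for the letters TGGGAA, the core that Rbpj binds, and CAGGTG, an E-box form bound by Snail and Zeb repressors, and the ends of the motifs can share at most 2 bases. TGGGAA was found upstream of 3 of the 13 genes (23.1%), namely Cdh26, Pcdh10 and Cdh24, beside 21.6% of 32851 promoters of the same length. CAGGTG was found upstream of 1 of the 13 (7.69%), Pcdh15, beside 17.2% of those promoters. None of the stretches printed above holds either set of letters, which says only that they are not in these windows.

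Type I cadherins are the core of adherens junctions, and 2 of the 5 listed, Cdh2 and Cdh15, were tested. Cdh2 (ENSMUSG00000024304, chromosome 18), N-cadherin, had a fitted level of 3367 in wild type and 3116 in the knockout. The authors' deposited table gave it a log2 fold change of -0.11 (SE 0.10, 95% interval -0.31 to 0.08, adjusted p = 0.363). The expressed genes next to Cdh2 lay above 0, with a median log2 fold change of 0.74 over the nearest 10 on each side. With that median subtracted Cdh2 stood at -0.85 and passed (adjusted p = 3.05e-16), so its place relative to its neighbours and its place relative to wild type differ. Here and below, Wald p-values after subtraction use the gene's own SE and take the median as exact. The spread among the neighbours does not enter them, so they overstate how surely a gene differs from its surroundings. Cdh15 (ENSMUSG00000031962, chromosome 8), the M-cadherin of muscle precursors, fell from 88.4 to 2.48, which is 35.6-fold by the authors' deposited table (log2 -5.16, SE 0.66, adjusted p = 9.23e-14). Of 8 skeletal muscle markers only Cdh15 itself and Des were tested, and both fell (Des by 0.52 on the log2 scale). RNA of bulk cells does not tell fewer cells of a type from less RNA per cell, here or for any gene below.

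The type II cadherins, which sort cells into like groups in embryos and in the nervous system, were tested for 8 of the 13 listed genes. Of these 4 rose, 3 fell and 1 did not pass, beside 25.4% higher and 25.1% lower over all genes tested. Cdh6 (ENSMUSG00000039385, chromosome 15), a cadherin of kidney and neural crest, had a fitted level of 8762 in wild type and of 31.3 in the knockout. Its log2 fold change of -8.13 (SE 0.26, adjusted p = 9.69e-204 per the authors' deposited table) is a 279.9-fold fall. Cdh11 (ENSMUSG00000031673, chromosome 8), the cadherin of osteoblasts and fibroblasts, went from 4206 to 22.8, a 184-fold fall per the authors' deposited table (log2 -7.52, SE 0.49, adjusted p = 7.84e-52). The 95% intervals of these changes, -8.65 to -7.61 and -8.48 to -6.57, overlapped, and both lay far from 0. Cdh24, a type II cadherin that also binds catenins, fell from 308.7 to 103.0 per the authors' deposited table (log2 -1.58, SE 0.19, adjusted p = 9.10e-16).

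Markers of pericytes and smooth muscle fell with Cdh6 and Cdh11. Of 11 listed, all were tested, 10 fell and 1 (Cnn1) did not pass, where 25.1% of all genes tested were lower. Their summed fitted level was 138010 in wild type and 9457 in the knockout. Acta2 and Cspg4 remained at 5224 and 2939 in the knockout, while Abcc9 stood at 3.67 there. The part of these cells' markers in the fall of Cdh6 and Cdh11 was not tested.

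The rising type II cadherins are best known from neurons and glia. Cdh18 (ENSMUSG00000040420) went from a fitted level of 0.455 to 332 (log2 9.51, SE 1.2, adjusted p = 2.99e-14 per the authors' deposited table). Wild type lies below the floor, and with it set at 1 normalised count per library Cdh18 was 332-fold higher in the knockout. Cdh10 (ENSMUSG00000022321) went from 1.07 to 122.2, 114-fold per the authors' deposited table (log2 6.83, SE 0.90, adjusted p = 4.16e-13). Cdh12 (ENSMUSG00000040452) rose from 0.204 to 9.13, which is 9.13-fold with wild type at the floor (adjusted p = 0.00459 in the deposited table, SE 1.75). These 3 genes were thus all but unmeasured in wild type, and Cdh12 stayed low in the knockout. Of 10 neuronal markers 3 were tested, and Tubb3 and Map2 fell while Syt1 rose, with a summed level of 3349 in wild type and 319.8 in the knockout.

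Cdh19 (ENSMUSG00000047216, chromosome 1), a cadherin of Schwann cell precursors, rose 20.5-fold from 1.32 to 27.2 by the authors' deposited table (log2 4.36, SE 1.01, adjusted p = 6.12e-05). Of 9 glial markers 5 were tested, and Cdh19 was the only one to pass. The others, Mbp and Erbb3 among them, did not, and the summed fitted level of all 5 was 52.3 in wild type and 113.7 in the knockout. Cdh5 (VE-cadherin, ENSMUSG00000031871), which holds endothelial cells together, was low in both groups, at 21.7 and 21.9. The authors' deposited table gave it a log2 fold change of 0.01 (SE 0.69, 95% interval -1.35 to 1.38, adjusted p = 0.988), an interval too wide to exclude a 2-fold change either way.

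Cdh6, Cdh10, Cdh12 and Cdh18 lie in that order on chromosome 15, close in the order of tested genes but not in distance. The promoter stretches printed above start at base 13173676 for Cdh6, 18820079 for Cdh10 and 23036213 for Cdh18. Between Cdh6 and Cdh18 the table holds 3 tested genes in the M21 gene order: Cdh10, Cdh12 and the pseudogene Gm8318, which had a log2 fold change of -1.73 and did not pass (adjusted p = 0.180). So the gene at one end of this run of tested genes fell and the 3 cadherins beyond it rose. The expressed genes around the run had a median of -0.13 on the log2 scale of the authors' deposited table, and subtracting it changed no call among the 4. On chromosome 8 the order is Cdh11, Cdh5, Cdh13 and Cdh15, where 3 fell and Cdh5 did not pass.

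**Figure D2:**
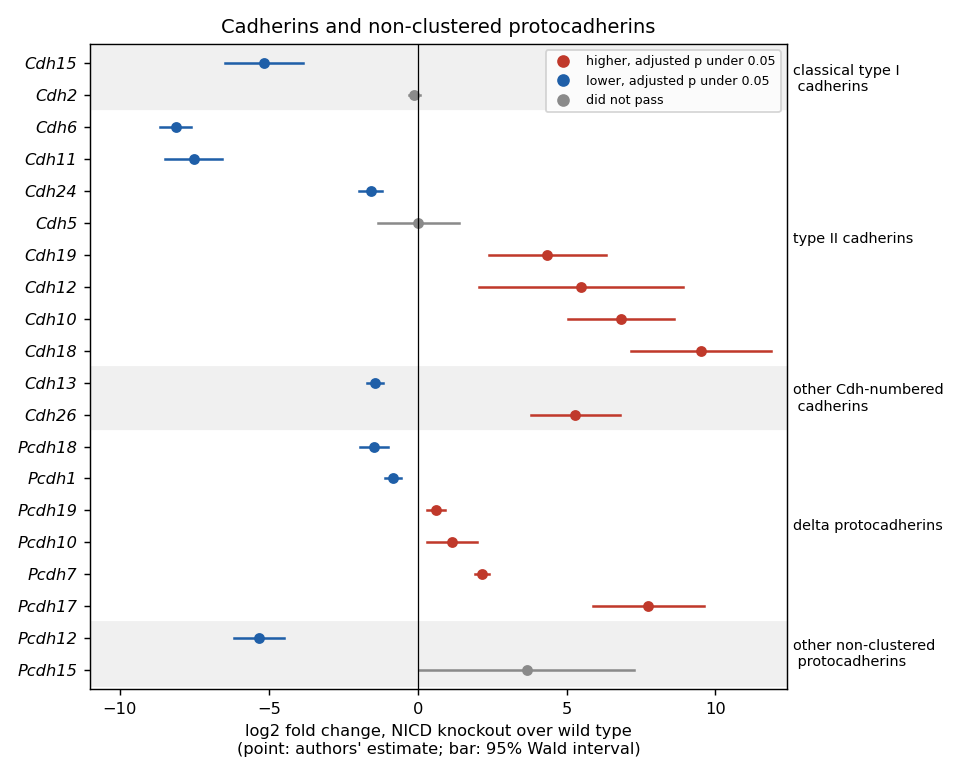
Log2 fold change of NICD knockout over wild type (horizontal; point, the authors' estimate; bar, 95% Wald interval) for the 20 tested cadherins and non-clustered protocadherins, grouped by role and coloured by call. Of the 20, 9 were higher and 8 lower, from Cdh6 at -8.13 to Cdh18 at 9.51, and Cdh2, Cdh5 and Pcdh15 did not pass.

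A pair of further cadherins lies outside the classical types. Cdh13 (ENSMUSG00000031841, chromosome 8), T-cadherin, is held by a lipid anchor without a tail and binds the fat-cell hormone adiponectin. It fell 2.70-fold per the authors' deposited table, from 4284 to 1587 (log2 -1.43, SE 0.14, adjusted p = 1.79e-23). Cdh26 (ENSMUSG00000039155, chromosome 2), a cadherin of epithelia, rose 39.3-fold by the authors' deposited table, from 1.51 to 59.3 (log2 5.30, SE 0.77, adjusted p = 4.46e-11). Of 12 epithelial markers 6 were tested, and Krt8, Krt19, Cldn4 and Grhl2 rose while Elf3 and Rab25 did not pass. Their summed fitted level was 19.2 in wild type and 129.8 in the knockout, so all of them stayed low. The part of these cells' markers in the rise of Cdh26 was not tested.

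Levels of different genes can be set side by side once divided by transcript length, here that of each gene's longest protein-coding transcript in GENCODE M21. Which transcripts these cells make is unknown, and the order depends on that length. Before division Cdh6 stood at 8762 and Cdh13 at 4284 in wild type. Per kilobase of transcript, 4 cadherins made up nearly all of the family's RNA in wild type: Cdh13 at 1132 fitted normalised counts (30.05% of the 12 cadherins), Cdh6 at 1073 (28.5%), Cdh11 at 745 (19.8%) and Cdh2 at 695 (18.5%). In the knockout Cdh2 led at 643 per kilobase (49.8%), followed by Cdh13 at 419 (32.5%) and Cdh18 at 121.0 (9.36%). Cdh6 and Cdh11 had dropped to 0.297% and 0.313% there. Cdh10 made up 2.78%, Cdh24 2.29% and Cdh26 1.58%, and each of the rest less than 1%. The sum over the 12 was 3767 per kilobase in wild type and 1292 in the knockout, so Cdh2 took a larger share of a smaller total while its own level did not pass. The measured differences between neighbours in these orders carry no test.

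**Figure D3:**
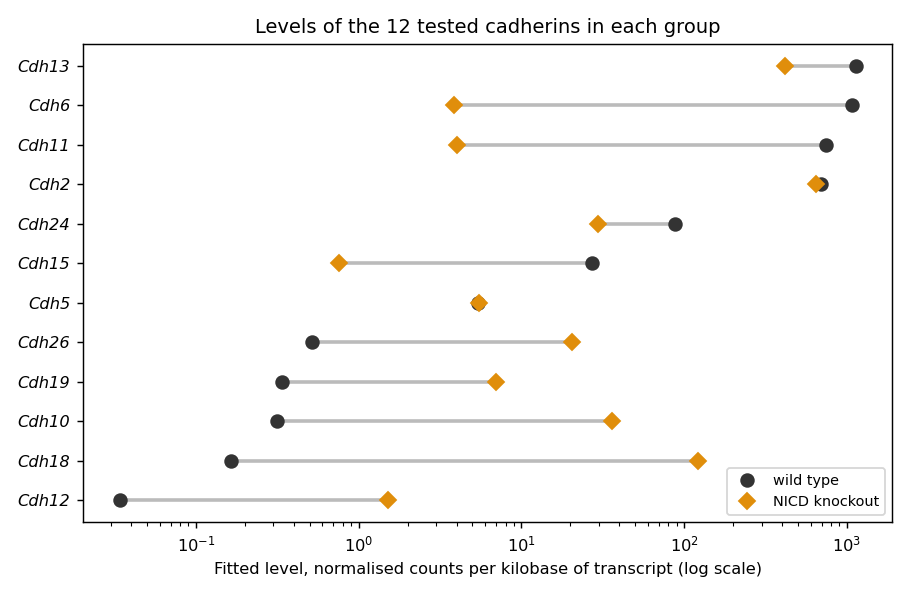
Fitted level of each of the 12 tested cadherins in wild type (circles) and NICD knockout (diamonds), in normalised counts per kilobase of transcript on a log scale, with a line joining the groups. Cdh6 and Cdh11 cross from 1073 and 745 to 3.83 and 4.04, and Cdh18 crosses from 0.166 to 121.0, while Cdh2 stays at 695 and 643.

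The non-clustered delta protocadherins, which signal to actin and guide cell movement and wiring, were tested for 6 of 9 listed genes, and all 6 passed. Over all genes tested 50.5% passed. Pcdh17 (ENSMUSG00000035566, chromosome 14), studied mostly in brain circuits, rose 214-fold per the authors' deposited table, with fitted levels of 2.86 and 613 (log2 7.74, SE 0.95, adjusted p = 4.40e-15). Pcdh7 (ENSMUSG00000029108, chromosome 5) was expressed in both groups and rose 4.44-fold, from 358.8 to 1593 (log2 2.15, SE 0.12, adjusted p = 2.81e-72 in the deposited table). Pcdh7 was the most precisely measured rise of the family, and Pcdh17 the steepest outside the type II cadherins. Pcdh10, which acts on actin through the WAVE complex, rose from 74.0 to 163.3 per the authors' deposited table (log2 1.14, SE 0.43, adjusted p = 0.0173). Pcdh19, a partner of N-cadherin whose human counterpart is an epilepsy gene, rose from 1140 to 1739 (log2 0.61, SE 0.16, adjusted p = 3.64e-04 in the deposited table). Changes of opposite sign were measured for the other two delta genes. Pcdh1, known from airway epithelium, fell from 3585 to 2020 per the authors' deposited table (log2 -0.83, SE 0.14, adjusted p = 4.28e-08). Pcdh18 fell from 1186 to 429.7 per the authors' deposited table (log2 -1.46, SE 0.24, adjusted p = 6.20e-09). Pcdh10 and Pcdh18 both lie on chromosome 3 and moved in opposite directions.

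Pcdh12 (ENSMUSG00000024440, chromosome 18), a protocadherin of endothelial cells, fell 40.4-fold per the authors' deposited table, from 265.5 to 6.58 (log2 -5.34, SE 0.43, adjusted p = 3.73e-34). Pcdh12 and Pcdh1 lie on the same chromosome as the clusters, where the expressed genes next to them had a median log2 fold change of 0.36, so both fell against the sign of their surroundings. Of 12 endothelial markers 9 were tested, 4 fell (Flt1, Esam, Kdr and Egfl7) and 5 did not pass (Cdh5, Pecam1, Tie1, Tek and Vwf). Their summed level was 12467 in wild type and 838 in the knockout, of which Flt1 made up 10241 and 502.8. The part of these markers in the fall of Pcdh12 was not tested. Pcdh15, part of the tip link of hair cells, was at 0.368 and 4.65 and did not pass (log2 3.66, SE 1.84, adjusted p = 0.0847 per the authors' deposited table).

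The 28 clustered protocadherins gave 2 rises, 9 falls and 17 genes that did not pass, and most of them were low. Over all genes tested 25.4% were higher and 25.1% lower. The gamma and alpha isoforms end in shared constant exons: between 23.8% and 62.6% of the 31-base words of their transcripts recur in other genes of the family, 4.64% to 22.5% for the beta genes and at most 0.271% outside the clusters. The split of reads among alpha and among gamma isoforms is therefore uncertain, and values of single isoforms are to be read with that limit.

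Of the alpha cluster Pcdhac2 (ENSMUSG00000102697), a C-type isoform with its own promoter, had the steepest fall of the family. It went from a fitted level of 345 to 0.171 (log2 -10.98, SE 1.21, adjusted p = 1.42e-18 per the authors' deposited table), and with the knockout at the floor it was 345-fold lower. The other tested alpha gene, Pcdha10, stayed near 10 in both groups (10.7 and 9.58) and did not pass (adjusted p = 0.914). These alpha genes share their constant exons. Only Pcdhac2 passed, and the difference between the pair was not tested.

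Among 13 beta genes, which are single exons without constant exons, 1 rose, 2 fell and 10 did not pass. Pcdhb22, the only beta gene with a mean of at least 100, fell 4.83-fold, from 183.4 to 38.0 (log2 -2.27, SE 0.30, adjusted p = 4.58e-13 per the authors' deposited table). Pcdhb17 fell from 89.5 to 52.2 (log2 -0.78, SE 0.33, adjusted p = 0.0391 per the authors' deposited table). Pcdhb5 rose from 8.95 to 27.6 (log2 1.62, SE 0.58, adjusted p = 0.0121 per the authors' deposited table). Both weaker calls hang on the scaling. Pcdhb17 no longer passed when fold changes were centred on the expressed genes (adjusted p = 0.0553). With the median of its neighbours, 0.60, subtracted it passed at -1.38 (adjusted p = 1.46e-04). Pcdhb5 passed at 1.67 with centring (adjusted p = 0.00953) and no longer passed with that median subtracted (adjusted p = 0.134). With the same median subtracted Pcdhb21 passed instead, at -1.45 (adjusted p = 0.0234). The 10 others, Pcdhb2, Pcdhb3, Pcdhb7, Pcdhb8, Pcdhb12, Pcdhb14, Pcdhb16, Pcdhb18, Pcdhb20 and Pcdhb21, had log2 fold changes from -1.53 to 1.88, and 8 of the 13 beta genes had a mean under 10.

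In the gamma cluster the isoforms of types A and B and those of type C differed in what was measured. Of 10 tested A and B isoforms 6 fell, 4 did not pass and none rose, where 25.1% of all genes tested were lower and 25.4% higher. Pcdhgb1 (ENSMUSG00000103037) carried most of their normalised counts and fell 32.4-fold per the authors' deposited table, with fitted levels of 893 and 27.6 (log2 -5.02, SE 0.24, adjusted p = 2.12e-92). Pcdhgb6 fell from 47.2 to 1.24 (log2 -5.25, adjusted p = 2.74e-08 per the authors' deposited table). Pcdhga6 went from 12.2 to 0.333, a log2 fold change of -3.60 with the knockout at the floor (adjusted p = 0.00149 in the deposited table). Beside these steep falls stood smaller ones. Pcdhga3 fell by 3.07, Pcdhgb7 by 2.62 and Pcdhgb8 by 1.84 on the log2 scale of the authors' deposited table (adjusted p = 6.48e-04, 0.0101 and 0.0439). Pcdhgb8 no longer passed after centring on the expressed genes (adjusted p = 0.0507). With the median of its neighbours subtracted it passed at -2.43 (adjusted p = 0.00676). The 4 that did not pass, Pcdhga1, Pcdhga4, Pcdhga5 and Pcdhgb2, lay between 0.17 and 0.99 on the log2 scale of the authors' deposited table. Along the cluster, Pcdhga1 came first of the tested genes, followed by Pcdhga3 and Pcdhgb1, which fell. Then came Pcdhga4, Pcdhgb2 and Pcdhga5, and after them Pcdhga6, Pcdhgb6, Pcdhgb7 and Pcdhgb8, which fell.

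The C-type isoforms lie at the end of the gamma cluster. Pcdhgc3 (ENSMUSG00000102918) had a fitted level of 6842 in wild type and 6792 in the knockout. The authors' deposited table gave it a log2 fold change of -0.01 (SE 0.16, 95% interval -0.32 to 0.30, adjusted p = 0.962), and centring on the expressed genes turned it to 0.04. Pcdhgc4 (ENSMUSG00000023036) rose 1.64-fold, from 2357 to 3874 (log2 0.72, SE 0.24, adjusted p = 0.00816 per the authors' deposited table). The expressed genes around the gamma cluster had a median log2 fold change of 0.59. With it subtracted, Pcdhgc4 stood at 0.13 (adjusted p = 0.703) and Pcdhgc3 at -0.60 (adjusted p = 4.64e-04), so the call passed from one to the other. Pcdhgc5 was low and did not pass (26.1 and 24.6).

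Summed over the cluster the gamma genes had a fitted level of 10292 in wild type and 10783 in the knockout. The A and B isoforms made up 10.4% of that in wild type (1067) and 0.862% in the knockout (93.0), and Pcdhgc3 with Pcdhgc4 made up 89.4% and 98.9%. So the total moved little while its A and B part was 11.5 times larger in wild type than in the knockout, mostly through Pcdhgb1. These sums are of normalised counts not divided by length, have no test of their own and rest on the same split of shared exons.

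**Figure D4:**
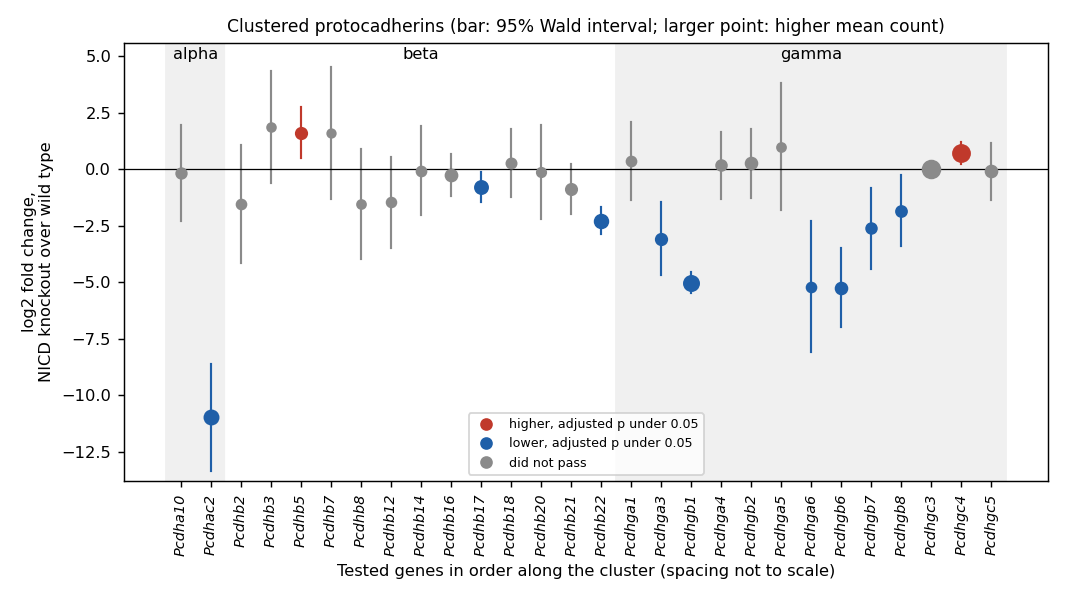
Log2 fold change of NICD knockout over wild type (vertical; bar, 95% Wald interval) for the 28 clustered protocadherins in gene order from alpha to gamma (horizontal, not to scale), with point size for mean count and colour for the call. Pcdhac2 at -10.98 and Pcdhgb1 at -5.02 stand below the abundant Pcdhgc3 and Pcdhgc4, at -0.01 and 0.72.

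Genes that act with cadherins were taken from lists chosen by function, and each count below stands beside 25.4% higher, 25.1% lower and 50.5% passing in either direction over all genes tested. Some catenins and armadillo proteins bind the cadherin tail, though not every gene of this list encodes such a protein. Of 11 tested 4 rose, 1 fell and 6 did not pass (median log2 fold change 0.18). Beta-catenin (Ctnnb1) did not pass, with 8215 and 8472 fitted normalised counts (log2 0.04, adjusted p = 0.792 per the authors' deposited table), nor did Jup (-0.31, adjusted p = 0.149), which passed at -0.48 (adjusted p = 0.0211) with its neighbours subtracted. Ctnnd1, the p120 catenin that keeps cadherins at the membrane, fell by 1.22 on the log2 scale of the authors' deposited table (SE 0.14, adjusted p = 2.65e-17). Ctnnal1, the desmosomal plakophilin Pkp3, Ctnna1 and Pkp4 rose, by 2.24, 4.14, 0.67 and 0.31 per the authors' deposited table. Alpha-catenin (Ctnna1) lies on chromosome 18 among genes with a median of 0.62, and with that subtracted it no longer passed (0.05, adjusted p = 0.763). Of 10 listed genes for desmosomal cadherins and desmoplakin only Dsg3 was tested, and it did not pass.

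All 19 junction scaffolds and nectins were tested, of which 3 rose, 11 fell and 5 did not pass (median -0.53). The scaffold Magi3 rose by 2.20, while Actn1 (alpha-actinin, an actin crosslinker), the adhesion receptor Nectin1, Tjp1 and Limd1 fell by 1.85, 1.42, 0.89 and 0.69 on the log2 scale of the authors' deposited table. Ajuba and Pard3 did not pass. Actn1 stood at -1.002 (adjusted p = 7.05e-09) with the median of its neighbours, -0.85, subtracted, and Pard3 then passed at 0.57 (adjusted p = 0.0127).

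Of 15 tested large and atypical cadherins 5 rose, 3 fell and 7 did not pass (median 1.27). Ret, a receptor kinase with cadherin repeats, fell 59.2-fold per the authors' deposited table, from 796 to 13.4 (log2 -5.89, SE 0.42, adjusted p = 9.14e-43). Fjx1, a relative of the kinase that modifies Fat and Dachsous, fell by 2.32, and Fat1 by 0.59 on the log2 scale of the authors' deposited table. Dchs1 and Dchs2, the ligands of Fat proteins, rose from 0.195 each to 17.1 and 17.2, which is 17.1-fold and 17.2-fold with wild type at the floor. Cdhr1 rose from 1.79 to 30.4 (adjusted p = 7.86e-06 per the authors' deposited table). The calsyntenins Clstn1 and Clstn3 did not pass, though with its neighbours' median of -0.45 subtracted Clstn3 stood at 0.53 (adjusted p = 8.80e-04).

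Proteins that cut, internalise or modify cadherins changed in both directions: of 18 tested, 6 rose, 6 fell and 6 did not pass (median -0.04). Furin, which removes the cadherin propeptide, fell by 1.39, and the phosphatase Ptprj and the sheddase Adam17 by 1.04 and 0.89 on the log2 scale of the authors' deposited table. Numb, an endocytic adaptor that also inhibits Notch, rose by 1.43 and the phosphatase Ptprk by 0.80 per the authors' deposited table. Numb lies among genes with a median of 0.95, and with that subtracted it stood at 0.49 (adjusted p = 9.80e-04). The surroundings of Adam17 had a median of -0.93, and with it subtracted Adam17 no longer passed (0.03, adjusted p = 0.871). Adam15 and Ncstn did not pass.

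Of 13 tested repressors of E-cadherin transcription 9 fell, 2 rose and 2 did not pass (median -0.61), where 25.1% of all genes tested were lower and 25.4% higher. Snai2 fell by 2.74 and Zeb2 by 1.77, and Twist1, Foxc2, Ctbp1 and Twist2 by 0.97, 0.75, 0.63 and 0.61 on the log2 scale of the authors' deposited table. Tcf4 and Klf8 rose by 0.87 and 1.85 per the authors' deposited table, and Tcf4, next to genes with a median of 0.63, no longer passed with that subtracted (0.24, adjusted p = 0.319). Cdh1 itself is not analysed here.

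Regulators of the clustered protocadherin locus include Ctcf and cohesin, which loop promoters to enhancers, and silencing factors such as Setdb1. Of 18 tested 8 fell, none rose and 10 did not pass (median -0.31), all 8 falls being smaller than 2-fold. Ctcf fell by 0.59 and Pds5b by 0.59 on the log2 scale of the authors' deposited table (adjusted p = 3.26e-06 and 7.82e-06). Wiz, Smc3, Setdb1 and Cbx5 fell by 0.37, 0.36, 0.39 and 0.30 per the authors' deposited table. The cohesin subunit Rad21 did not pass (-0.15, adjusted p = 0.202), nor did Trim28 (-0.09, adjusted p = 0.650). Wiz, Smc3, Dnmt3a and Pds5a, 4 of the 8 that fell, no longer passed once the median of their neighbours was subtracted (adjusted p = 0.0607, 0.246, 0.213 and 0.144), while Rad21 then passed at -0.57 (adjusted p = 7.61e-08). Centring on the expressed genes ended the calls of Cbx5, Dnmt3a and Pds5a (adjusted p = 0.0768, 0.0732 and 0.102). With its neighbours subtracted Cbx5 passed at -0.62 (adjusted p = 3.13e-06).

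**Figure D5:**
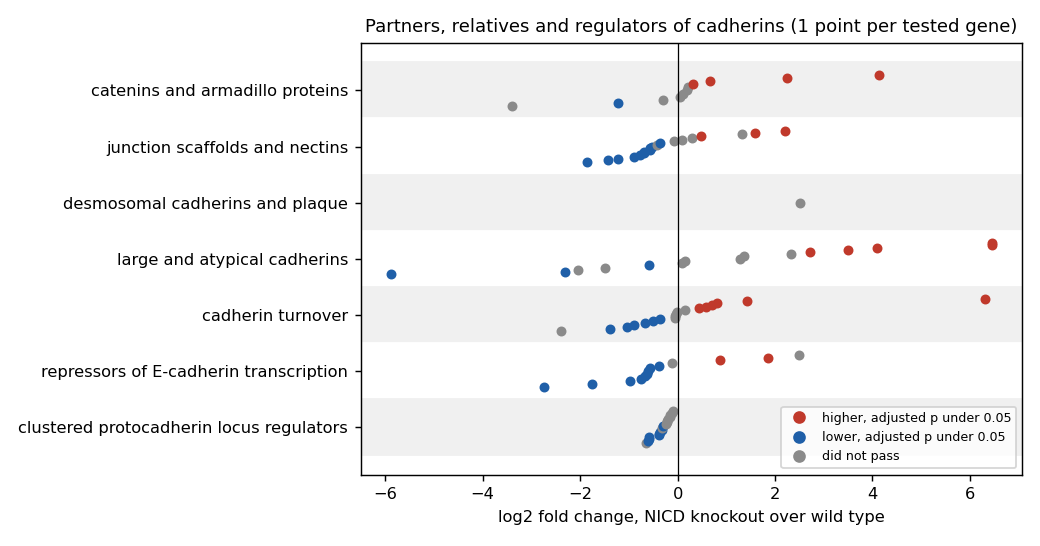
Log2 fold change of NICD knockout over wild type (horizontal) for each tested gene of 7 lists of partners, relatives and regulators of cadherins (rows), 1 point per gene coloured by call. The repressors of E-cadherin transcription (median -0.61) and the junction scaffolds (median -0.53) lie mostly below 0, and the regulators of the clustered locus lie between -0.66 and -0.09.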

How the data were processed

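RNA of 3 wild type and 3 NICD knockout libraries was compared, grouped by the genotype label. Salmon, DESeq2 and mm39 are named in the submitters' processing notes, without versions or settings. Per the file headers, the authors deposited per gene a mean normalised count (counts over size factors, a signal never below 0), a log2 fold change and its standard error, the Wald statistic (a score), and the p-value with its Benjamini-Hochberg adjustment. Recomputing the adjustment from the deposited p-values over 14470 genes differed by at most 1.56e-13, and 2 of 14472 rows had no p. A gene was called where the authors' DESeq2 comparison gave an adjusted p under 0.05. An edgeR test had been planned for counts of single libraries and was not run, since none were used.

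Fitted group levels, 95% Wald intervals (1.96 standard errors), values with a group at 1 normalised count per library, centring on genes averaging at least 100, and subtraction of the median of 10 expressed neighbours on each side were computed in Python 3.11.15 (numpy 2.4.6, pandas 2.3.3, scipy 1.17.1, matplotlib 3.10.9). The calls and the centring were run on simulated fold changes, with changes planted only in genes averaging at least 100. Their spread was drawn from the deposited standard errors, which the Wald test also assumes. So the simulation checks the code, not the authors' calls or the power for genes of low count. The fitted levels were checked against the deposited means. The floor and the subtraction of neighbours were not tested on simulated data. Gene order and transcript lengths came from GENCODE M21 (99.9% of IDs matched), and promoters from RefSeq. The genes and lists were chosen with earlier results of these data known. Named are all of the 48 that passed or averaged at least 100, and in other lists the 6 smallest p and the 2 best expressed that did not pass, with a few added after their values were seen. A few genes of these lists that the rule names are not reported here.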

Additional observations from a re-analysis of the deposited data

How the results depend on the processing

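Of the 11 higher and 17 lower calls, an adjusted p under 0.01 left 9 and 14, Bonferroni adjustment over all genes tested 5 and 12, a fold change of at least 2-fold 9 and 15, a minimum mean of 10 left 10 and 16, a minimum mean of 100 left 6 and 10, centring 11 and 15, and subtracting neighbours 9 and 20. Without the clustered protocadherins 9 were higher and 8 lower. The median log2 fold change, -0.11, was -1.13 with a minimum mean of 100 and 0.31 without the clustered genes, so its sign depends on which genes enter. Centring shifted all values by 0.05 and turned Pcdhgc3 log2 fold change from -0.01 to 0.039. No paired analysis was possible because no values of single libraries were used, and the p numbers of the titles are not shared between the groups. For want of such values no library was left out in turn and no alternative count test was run. Median SE was 0.24 in the 18 family members averaging 100 or more and 1.26 in the 13 averaging under 10, so for the latter only large changes could pass.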
